A study of Homo sapiens with 24 samples.

Results

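The comparison described here set the neuroblastoma cell line SK-N-AS against the neuroblastoma cell line IMR-32, hour by hour, in cultures labelled with the HOXC9 transgene. It used 12 of the series' 24 arrays, chosen by their labels alone: 6 of SK-N-AS and 6 of IMR-32, each with 1 array for each of the 6 labelled hours, which are 0, 6 and 12 h and then 24, 48 and 96 h. The other 12 arrays are the same lines and hours labelled GFP (green fluorescent protein, the control transgene), and they were used only where stated. No array was left out and no value was filled in. All cultures carry one of the transgenes, so neither line has an array of unmodified cells. The submitters call both transgenes induced. The labels do not say how the transgenes were delivered or driven, whether a line was used as 1 clone, whether 0 h precedes their expression, or whether the hours come from separate cultures, so p-values measure the spread between these arrays, which may be technical.

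Neuroblastoma arises from the sympathoadrenal branch of the neural crest. Lines derived from it range from noradrenergic cells, which express neuronal and catecholamine genes under factors such as PHOX2A, HAND2 and GATA3, to mesenchymal cells with matrix, actin and AP-1 programmes. MYCN is amplified in IMR-32 and not in SK-N-AS. Homeobox transcription factors such as HOXC9 set positional identity, and the submitters studied HOXC9 for its link to the mitochondrial pathway of apoptosis.

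Levels are log2 of the deposited fluorescence intensity, so 1 unit is a 2-fold difference, and they ran from 0.41 to 18.24. A difference is SK-N-AS minus IMR-32 unless the text says otherwise, given ± its standard error from limma. Calls were made where the p adjusted over all 17199 named genes (Benjamini-Hochberg) lay under 0.05. All arrays had been scaled to 1 distribution by the authors, with a median of 114 units. Each gene stands for its brightest probe, and precision is limited by having 6 arrays a group. A level near the bottom of the range cannot be told from background, so a difference against such a level depends on the scale. Each array measures a whole culture: fewer cells of a type and less RNA per cell cannot be told apart.

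Before the results, 2 facts about the arrays have to be stated. Arrays of 1 line correlated across genes at r = 0.983 to 0.997 in SK-N-AS and at 0.991 to 0.996 in IMR-32, against 0.864 to 0.877 between the lines. Within SK-N-AS, the arrays of 6, 12 and 24 h stood apart from those of 0, 48 and 96 h, with r = 0.996 to 0.997 and 0.990 to 0.995 within these sets and 0.983 to 0.988 between them. The other fact concerns the transgene itself. HOXC9 was called higher in SK-N-AS, at lowest 11.63, median 11.73 and highest 11.90 over the 6 arrays, than in IMR-32, at 9.86, 9.97 and 10.34. The lines did not overlap, and the difference was 1.67 ± 0.08 (adjusted p = 1.6e-06, limma). In the GFP arrays the HOXC9 difference was 6.33, with the probe at an average of 12.30 in SK-N-AS and 5.98 in IMR-32. Thus, against the label, the HOXC9 arrays of SK-N-AS did not have a brighter HOXC9 probe than its GFP arrays, and the labels do not say whether it reads the transgene.

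In these cultures, about 2 genes in 3 differed between the lines, and the differences were large. Limma called 5934 genes higher in SK-N-AS (34.5% of those tested) and 5200 higher in IMR-32 (30.2%). Of these, 3175 (18.5%) and 2774 (16.1%) differed at least 2-fold. Counts over gene lists below are to be read beside these shares. On 9170 genes (53.3%) the 6 arrays of one line all lay above the 6 of the other. The median difference over all genes was 0.03 and the median absolute difference 0.65, while 213 called genes differed by at least 8 units, 88 of them higher in SK-N-AS and 125 in IMR-32. At 0, 48 and 96 h alone, 3074 genes (17.9%) were called at least 2-fold higher in SK-N-AS and 2734 (15.9%) in IMR-32. All 3175 and all 2774 genes named above kept their sign at those hours, and 2770 and 2414 of them were again called with at least 2-fold. The arrays of those hours are among those on which the genes were chosen. The kept signs and calls are therefore no independent test of stability over the hours.

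**Figure D1:**
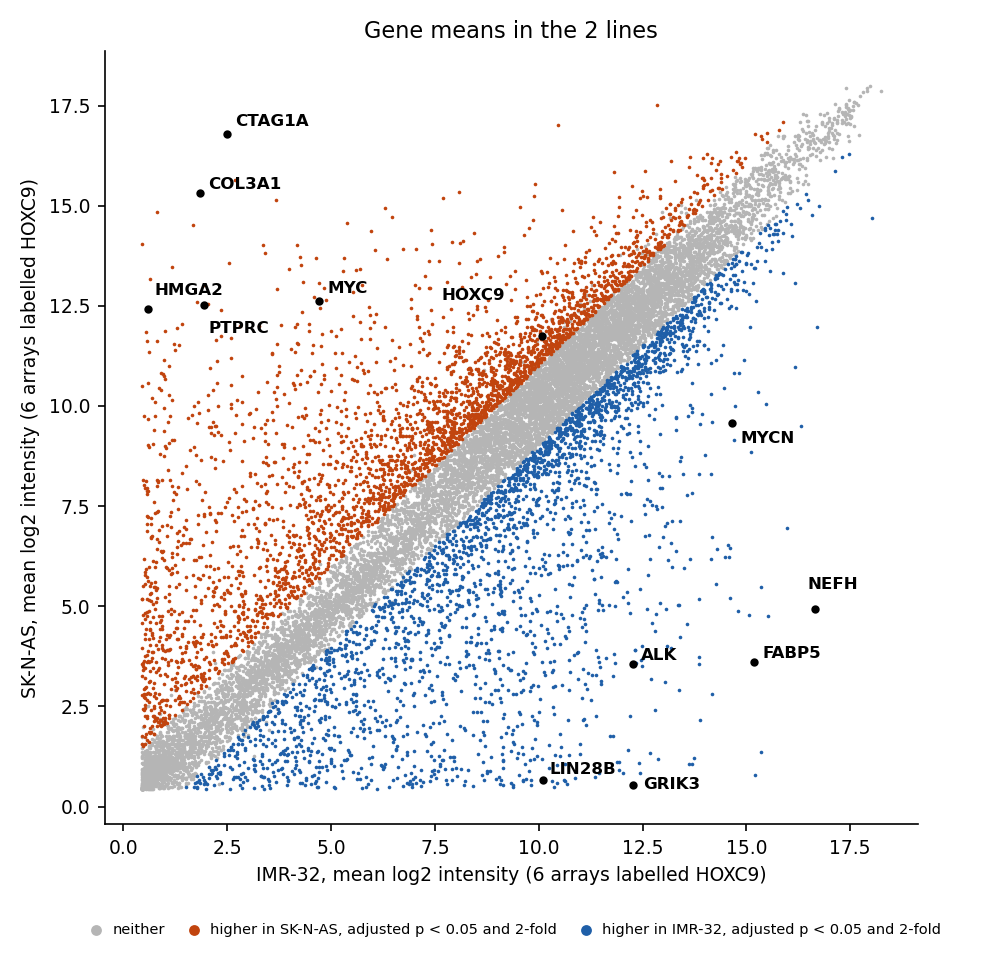
Mean log2 intensity of each of 17199 genes in IMR-32 (x axis) and SK-N-AS (y axis) over 6 arrays labelled HOXC9 per line, with genes called and at least 2-fold different in colour. Genes along the left and lower edges are near the lowest intensity in one line and bright in the other, such as HMGA2 at 12.42 against 0.59 and GRIK3 at 0.54 against 12.26.

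The 15 genes named furthest toward SK-N-AS come first. CTAG1A, a cancer-testis antigen gene whose copies on the X chromosome are near identical and may share signal, stood furthest, at 16.78 against 2.49, a difference of 14.28 ± 0.25 (adjusted p = 8.79e-09, limma). ANXA1, the phospholipid-binding annexin A1, ran from 14.50 over a median of 14.81 to 15.23 in SK-N-AS and from 0.44 over 0.55 to 1.99 in IMR-32. For COL3A1, the fibrillar collagen III, the SK-N-AS arrays read 14.96, 15.42 and 15.58 at the lowest, median and highest, and the IMR-32 arrays 0.48, 1.71 and 3.09. The IMR-32 arrays thus spread widely for COL3A1, all of it far below SK-N-AS.

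GNG11, a G protein gamma subunit, differed by 13.59 ± 0.09, and MSN, moesin, which ties actin to the membrane, by 12.52 ± 0.15. The collagenase MMP1 differed by 12.97 ± 0.36, the matrix protein TGFBI by 12.86 ± 0.19, and decorin, DCN, by 11.46 ± 0.10. HMGA2, an architectural chromatin factor and let-7 target, differed by 11.83 ± 0.09. The complement protease CFI, the brain proteoglycan BCAN, the ephrin receptor EPHA3, the fibroblast protease FAP, and the cancer-testis genes CTAG2 and LY6K complete the 15, at 10.87 to 12.32. The other probes of BCAN gave 0.65 and 0.47, so its difference rests on 1 of 3 probes.

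The 15 genes named furthest toward IMR-32 follow. GALNT14, which starts O-linked glycosylation, differed by 12.61 ± 0.17 in IMR-32's favour (adjusted p = 3.09e-09, limma), and PGAP4, which adds a sugar to GPI anchors, by 12.57 ± 0.19. The kainate receptor subunit GRIK3 ran from 12.10 over 12.30 to 12.41 in IMR-32 and from 0.50 over 0.53 to 0.59 in SK-N-AS, near the lowest intensity. NEFH, the heavy neurofilament chain, ran from 16.56 over 16.67 to 16.74 in IMR-32 and from 3.80 over 4.88 to 6.14 in SK-N-AS. The low NEFH values of SK-N-AS were those of 6, 12 and 24 h.

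NMNAT2, an enzyme that maintains axons, was higher in IMR-32 by 11.60 ± 0.14, and FABP5, which carries fatty acids, by 11.58 ± 0.14. TAFA5, FAM162B, CHST15, PHF21B, ARMCX2, FAIM, ZBED10P, FHOD3 and SVOP were the others, at 10.83 to 12.52. FAIM blocks death receptor signalling, SVOP is a synaptic vesicle protein and FHOD3 a formin. With 16 units added to every intensity before the log, which damps the lowest values, these 30 genes still differed by 7.51 to 12.32 units.

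As examples of promoters of genes bright in 1 line alone, 4 are printed, from 250 bases before to 50 after the start of the gene (RefSeq, GRCh38.p14), with CG pairs in capitals. ANXA1 and GNG11 were bright in SK-N-AS alone, and LIN28B and GRIK3 in IMR-32 alone. The 4 were chosen after their values were seen.
ANXA1, chr9:73151615-73151914, + strand: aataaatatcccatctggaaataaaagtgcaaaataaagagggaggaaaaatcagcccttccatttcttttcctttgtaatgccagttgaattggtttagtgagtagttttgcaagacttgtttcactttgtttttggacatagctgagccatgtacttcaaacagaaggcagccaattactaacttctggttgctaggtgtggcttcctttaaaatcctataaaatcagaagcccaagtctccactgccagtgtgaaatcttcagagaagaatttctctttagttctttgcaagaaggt
GNG11, chr7:93921485-93921784, + strand: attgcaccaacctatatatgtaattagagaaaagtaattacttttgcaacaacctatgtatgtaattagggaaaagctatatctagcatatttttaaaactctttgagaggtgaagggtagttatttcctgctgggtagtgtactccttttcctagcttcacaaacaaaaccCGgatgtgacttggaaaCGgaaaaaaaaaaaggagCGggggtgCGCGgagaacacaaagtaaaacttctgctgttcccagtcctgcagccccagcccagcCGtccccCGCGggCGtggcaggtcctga
LIN28B, chr6:104940715-104941014, + strand: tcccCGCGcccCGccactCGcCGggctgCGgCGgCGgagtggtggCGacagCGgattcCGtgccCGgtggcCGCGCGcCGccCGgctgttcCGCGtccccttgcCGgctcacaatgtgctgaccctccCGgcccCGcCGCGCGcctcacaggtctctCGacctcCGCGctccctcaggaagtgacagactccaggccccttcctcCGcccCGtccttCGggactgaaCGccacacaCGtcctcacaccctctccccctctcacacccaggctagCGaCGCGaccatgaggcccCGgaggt
GRIK3, chr1:37034466-37034765, - strand: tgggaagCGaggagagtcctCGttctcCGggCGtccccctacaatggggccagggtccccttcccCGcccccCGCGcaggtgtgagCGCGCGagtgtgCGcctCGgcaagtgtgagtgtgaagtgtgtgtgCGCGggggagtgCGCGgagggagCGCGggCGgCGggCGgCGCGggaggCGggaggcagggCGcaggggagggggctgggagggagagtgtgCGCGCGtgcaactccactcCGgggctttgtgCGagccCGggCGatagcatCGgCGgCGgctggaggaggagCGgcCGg
The ANXA1 window holds 0 CG pairs and that of GNG11 holds 9, while those of LIN28B and GRIK3 hold 37 each. Their G and C shares are 37.7%, 44.7%, 73.0% and 74.3%.

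CG pairs were also counted over all such genes. Taking genes above log2 9 on average in one line and below log2 4 in the other, 128 were bright in SK-N-AS alone and 182 in IMR-32 alone. Promoters were found for 93 and 138 of them, with a median of 13 CG pairs (quartiles 3 and 24) in the SK-N-AS set and 23.5 (14 and 35) in the IMR-32 set. The printed windows thus lie further apart than the sets, with ANXA1 below the lower quartile of its set and LIN28B and GRIK3 above the upper quartile of theirs. At most 5 CG pairs were present in 33 of 93 windows (35.5%) and in 12 of 138 (8.7%). For comparison, the share was 3.97% among genes above log2 9 in both lines, 48.9% among genes below log2 4 in both, and 16.6% of all 13566 measured genes with a promoter. CG was counted on 1 strand, which reads the same on the other. These counts describe the windows, and no test was made on them.

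MYC genes ran in opposite directions in the lines. MYCN, the amplified oncogene of IMR-32, ran from 14.15 over 14.73 to 14.84 in IMR-32 and from 8.37 over 9.72 to 10.25 in SK-N-AS, a difference of 5.08 ± 0.34 (adjusted p = 7.93e-06, limma). Its second probe separated the lines far more, at 16.50 against 1.92, and its other probes by 2.67 and 3.78. Hence the size of the MYCN difference depends on the probe, though the direction is that of all 4. MYC itself ran from 12.21 over 12.73 to 12.88 in SK-N-AS and from 4.37 over 4.77 to 4.96 in IMR-32, a difference of 7.91 ± 0.08 (adjusted p = 1.36e-09). Of 12 measured genes of the MYC network, 3 were called higher in SK-N-AS and 5 in IMR-32, the latter including the antagonists MXD1 (0.94) and MXD3 (1.21).

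Genes commonly induced by MYC proteins leaned toward IMR-32. Of 19, 10 were called higher there and 2 in SK-N-AS, with a median difference of -0.27 against 0.03 for all genes. TERT, the telomerase catalytic subunit, was higher in IMR-32 by 3.94 ± 0.15, the nucleolar GNL3 by 1.51 ± 0.07, the polyamine enzyme ODC1 by 1.19 ± 0.11 and the nucleotide kinase NME1 by 1.13 ± 0.08. Cytosolic ribosomal protein genes followed the same way by little: 12 of 21 were called higher in IMR-32, against 2 in SK-N-AS, and RPS3 (1.08) was the only one at 2-fold. RPL11 (0.90) and RPL8 (0.63) were the 2 called higher in SK-N-AS.

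The neighbours of MYCN on chromosome 2 were examined because amplified stretches hold several genes. Among the 10 measured genes on either side, 6 were called higher in IMR-32, all at least 2-fold, 8 in SK-N-AS and 6 in neither. DDX1, an RNA helicase next to MYCN, averaged 18.03 in IMR-32, among the brightest values of the arrays, and 14.69 in SK-N-AS. LRATD1 was higher in IMR-32 by 8.24, GREB1 by 3.72, CYRIA by 4.19, VSNL1 by 4.07 and KCNS3, a potassium channel subunit, by 6.23. Between and beyond them lay genes called higher in SK-N-AS, such as TRIB2 by 0.72 and SMC6 by 0.96. MEIS1, a HOX cofactor also known to be amplified in IMR-32, was higher there by 3.11 ± 0.10 (adjusted p = 1.22e-07, limma). Of its 20 neighbours, 6 were called higher in IMR-32, 9 in SK-N-AS and 5 in neither.

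The LIN28 and let-7 genes split between the lines. LIN28B, which blocks maturation of let-7 microRNAs, ran from 9.91 over 10.10 to 10.30 in IMR-32 and from 0.58 over 0.65 to 0.80 in SK-N-AS, a difference of 9.43 ± 0.08 (adjusted p = 7.21e-10, limma). HMGA2, a let-7 target, went the other way as above, and so did the mRNA-binding IGF2BP2, at 3.15 ± 0.11. The growth factor IGF2 was higher in SK-N-AS by 4.67 ± 0.11, at 17.51 against 12.84. Over the 11 measured genes of the list, 6 were called higher in SK-N-AS and 5 in IMR-32.

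**Figure D2:**
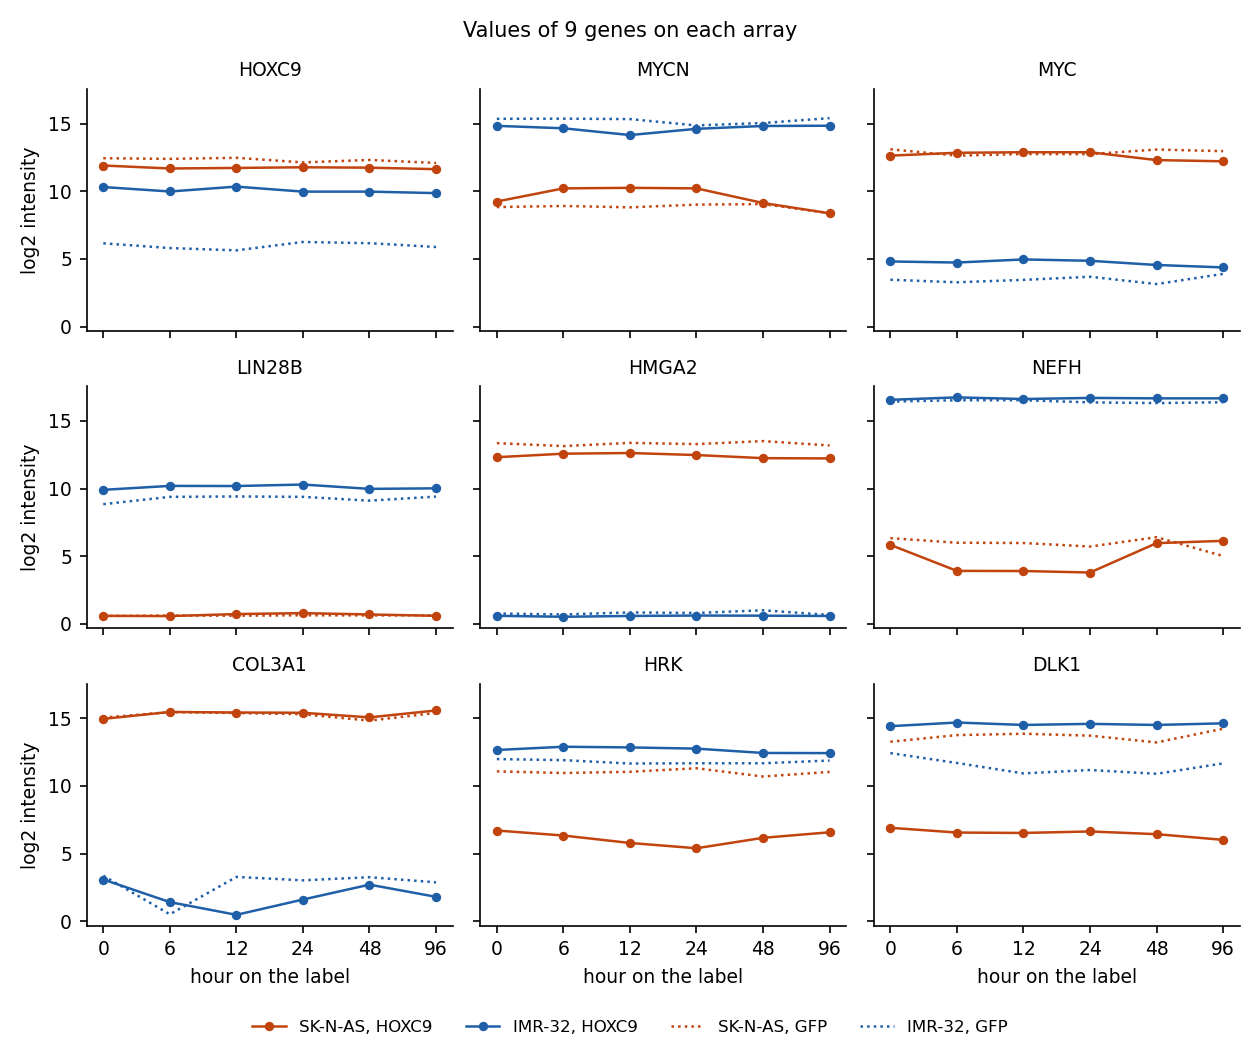
Log2 intensity on each array (y axis) by the hour on the label (x axis) for 9 genes, SK-N-AS in orange and IMR-32 in blue, solid for arrays labelled HOXC9 and dotted for GFP. The solid lines stay apart at all 6 hours for each gene, and for HOXC9, HRK and DLK1 the dotted lines lie elsewhere.

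Sympathetic neuron factors included some that were bright in both lines and others that were dim in SK-N-AS alone. Of 18 measured transcription factors of noradrenergic identity, 16 were called higher in IMR-32, 10 of them at least 2-fold, and 0 in SK-N-AS, with a median of -1.36. HAND2 was bright in both lines, at 14.20 and 14.29, and was not called (-0.09, adjusted p = 0.544, limma). PHOX2A was also bright in both, at 14.35 ± 1.04 and 13.33 ± 0.55 (SD, n = 6), with overlapping arrays and no call (adjusted p = 0.124), though at 6, 12 and 24 h alone it was called toward SK-N-AS at 2.31. GATA3 differed by 0.52 ± 0.11 in IMR-32's favour, a call that was lost at 0, 48 and 96 h (adjusted p = 0.11).

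The factors that differed most are LMO3, a LIM-only cofactor, at 8.72 ± 0.11 in IMR-32's favour, INSM2 at 7.16 ± 0.16, HAND1 at 6.64 ± 0.20 and TFAP2B at 6.09 ± 0.11. LMO3 ran from 9.23 over 9.53 to 9.81 in IMR-32 and from 0.55 over 0.65 to 1.35 in SK-N-AS, so the lines did not overlap. For HAND1 the corresponding values were 11.01, 11.61 and 11.80 against 4.15, 5.06 and 5.28. HAND1 and HAND2 are close relatives, and only HAND1 was called.

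Several enzymes of catecholamine synthesis were higher in IMR-32. TH, the rate-limiting enzyme, was higher in IMR-32 by 5.73 ± 0.21 (adjusted p = 3.21e-07, limma), DDC, the decarboxylase, by 8.15 ± 0.25 and PNMT, which makes adrenaline, by 4.90 ± 0.11. A second TH probe read 6.84 and 6.95, so the TH difference rests on 1 of 2 probes. DBH, which makes noradrenaline, was closer between the lines, at 7.91 and 8.60, with overlapping arrays and a call of 0.70 ± 0.19 (adjusted p = 0.0147, limma) that was lost at 0, 48 and 96 h (adjusted p = 0.0675). In the other direction, the ascorbate-regenerating CYB561 was higher in SK-N-AS by 3.33 ± 0.09 and the dopamine transporter SLC6A3 by 3.03 ± 0.10. Over the list, 9 of 14 were called higher in IMR-32, against 4 in SK-N-AS. The GFP arrays did not share that lean in calls, with 4 toward IMR-32 and 5 toward SK-N-AS. The list median was -0.19 there, against -0.69 here. TH, DDC and PNMT kept their direction in the GFP arrays, whereas DBH stood 2.40 toward SK-N-AS.

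Granins had members on both sides. CHGB, chromogranin B, was higher in IMR-32 by 7.24 ± 0.20 and SCG3 by 8.33 ± 0.14, whereas SCG2 was higher in SK-N-AS by 2.70 ± 0.07. CHGA, a marker used in diagnosis, was bright in both lines at 14.04 and 13.68 and was not called (adjusted p = 0.253, limma). PCSK2, a prohormone convertase, was higher in IMR-32 by 3.85 ± 0.11. Of 16 genes for granins, neuropeptides and their processing, 7 were called higher in SK-N-AS and 6 in IMR-32.

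Cytoskeletal genes of neurons were the list furthest toward IMR-32. Of 18 neurofilament and neuronal microtubule genes, 16 were called higher in IMR-32, 13 of them at least 2-fold, and 0 in SK-N-AS, with a median of -5.59. Alongside NEFH, the neurofilament partner INA was higher in IMR-32 by 8.16 ± 0.10, the reticulon RTN1 by 6.83 ± 0.10, the migration protein DCX by 6.09 ± 0.13 and its relative DCLK1 by 5.37 ± 0.12. For INA the arrays ran from 14.58 over 14.60 to 14.65 in IMR-32 and from 6.01 over 6.54 to 6.62 in SK-N-AS.

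Neuronal splicing regulators were called higher in IMR-32 for 11 of 14 genes, all at least 2-fold, and for 0 in SK-N-AS. RBFOX1 differed by 10.62 ± 0.10 (adjusted p = 1.36e-09, limma), from 11.27 over 11.32 to 11.51 in IMR-32 and from 0.54 over 0.67 to 1.05 in SK-N-AS. The microexon regulator SRRM4 differed by 8.0 ± 0.08, RBFOX3 by 5.52 ± 0.15 and CELF3 by 5.50 ± 0.19.

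Release machinery of the synapse followed. Of 22 genes, 18 were called higher in IMR-32, against 2 in SK-N-AS. The complexin CPLX1, which clamps vesicle fusion, was higher by 6.53 ± 0.15, the active zone proteins RIMS2 by 6.74 ± 0.16 and BSN, bassoon, by 5.66 ± 0.13, and the vesicle GTPase RAB3C by 6.14 ± 0.14. Neurotransmitter receptors were mostly not called: 5 of 15 were called toward IMR-32, 2 toward SK-N-AS and 8 in neither direction. Over all genes 30.2% were called toward IMR-32, so the receptors' share in that direction was near that of all genes. The AMPA receptor subunit GRIA2 was higher in IMR-32 by 9.71 ± 0.10, the nicotinic subunit CHRNB2 by 7.48 ± 0.13 and the kainate subunit GRIK2 by 2.13 ± 0.14, whereas the muscarinic CHRM3 was higher in SK-N-AS by 1.18 ± 0.09.

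Of 18 classical cadherins and neural adhesion molecules, 9 were called higher in IMR-32, against 6 in SK-N-AS. Toward IMR-32, the axonal contactin CNTN2 differed by 9.09 ± 0.12, CNTN1 by 4.09 ± 0.09, CNTNAP2 by 5.03 ± 0.18 and NRCAM by 5.04 ± 0.11. Ganglioside synthesis, which makes the sialylated lipids of neuroblastoma cells, was called higher in IMR-32 for 5 of 9 genes and in SK-N-AS for 2. ST8SIA1, the GD3 synthase that feeds the antigen GD2, differed by 7.38 ± 0.33 and ran from 0.43 over 1.84 to 3.27 in SK-N-AS, against 9.11 over 9.19 to 9.39 in IMR-32.

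**Figure D3:**
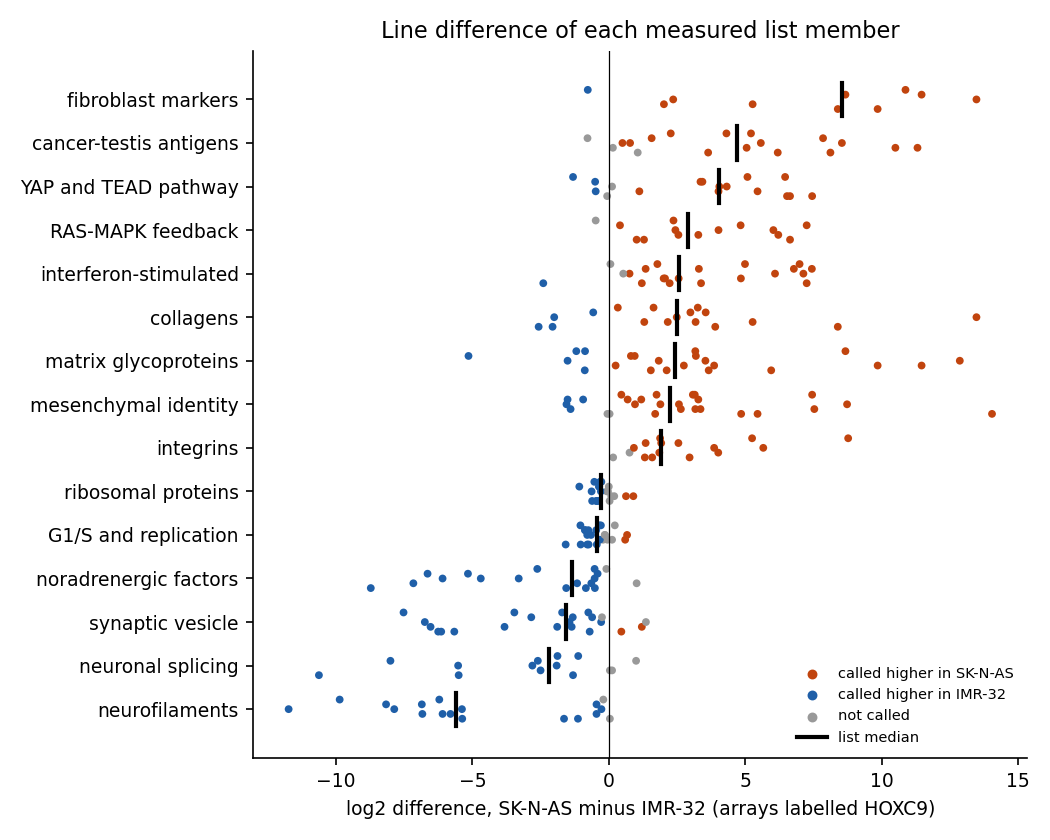
Log2 difference, SK-N-AS minus IMR-32, of each measured member of 15 gene lists in the arrays labelled HOXC9, with the list median as a bar. Medians run from -5.59 for neurofilament and microtubule genes to 8.53 for fibroblast markers, against 0.03 for all genes.

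Mesenchymal genes pointed to SK-N-AS. Of 26 measured genes of mesenchymal neuroblastoma identity, 20 were called higher in SK-N-AS, 17 of them at least 2-fold, and 4 in IMR-32, with a median of 2.23. The transcription factor TWIST2 was higher by 8.73 ± 0.19, TBX18 by 4.85 ± 0.08 and YAP1, the Hippo effector, by 5.45 ± 0.13. PRRX1, a mesenchymal homeobox factor, was higher by 3.15 ± 0.22 at a low level (4.27 against 1.12). VIM, vimentin, was bright in both and higher by 1.19 ± 0.09. CD44, a hyaluronan receptor often used as a mesenchymal marker, was dim in both, at 5.07 and 6.01, and was called toward IMR-32 (adjusted p = 0.0166, limma) but not at 0, 48 and 96 h (adjusted p = 0.32).

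Of 17 genes of the YAP and TEAD pathway and its targets, 12 were called higher in SK-N-AS, all at least 2-fold, and 3 in IMR-32, among them the targets TGFB2 (1.31) and F3 (0.48). The LIM protein AJUBA differed by 6.64 ± 0.13, the phosphatase PTPN14 by 6.46 ± 0.18 and the DNA-binding partner TEAD2 by 4.02 ± 0.08. AP-1 and EGR factors were called higher in SK-N-AS for 10 of 14 and in IMR-32 for 2. IER3 differed by 4.87 ± 0.08, FOS by 4.15 ± 0.20, MAFF by 3.63 ± 0.12, FOSL1 by 3.58 ± 0.21 and EGR2 by 3.29 ± 0.19. JUN, a partner of FOS in AP-1, was called higher in IMR-32 by 3.12, at 14.27 against 11.16.

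Collagens, matrix proteins and their receptors leaned toward SK-N-AS. For collagens, 13 of 17 genes were called higher in SK-N-AS and 4 in IMR-32, and for matrix glycoproteins and crosslinkers 17 of 22 and 5. COL1A1 ran from 14.22 over 14.37 to 14.46 in SK-N-AS and from 5.75 over 5.92 to 6.23 in IMR-32. COL5A1 differed by 3.90 ± 0.11, COL18A1 by 3.26 ± 0.08, the crosslinker LOXL2 by 5.95 ± 0.11 and periostin, POSTN, by 8.67 ± 0.18. The crosslinkers LOX (5.14) and LOXL1 (1.19) were called the other way, higher in IMR-32. FN1, fibronectin, differed by 3.17 ± 0.11, while 1 of its 5 probes went the other way, at -1.36.

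Integrins were called higher in SK-N-AS for 14 of 16 genes and in IMR-32 for 0. ITGB5 differed by 8.77 ± 0.11, the collagen receptor subunit ITGA11 by 5.66 ± 0.12, ITGA8 by 5.25 ± 0.22 and ITGA9 by 2.96 ± 0.09. Metalloproteinases and inhibitors were mixed, with 9 of 17 called higher in SK-N-AS and 3 in IMR-32. Besides MMP1, the stromelysin MMP10 differed by 8.0 ± 0.25 and the inhibitor TIMP1 by 3.99 ± 0.11, while TIMP3 was higher in IMR-32 by 4.58 ± 0.21. Actomyosin and focal adhesion genes were called higher in SK-N-AS for 14 of 19 and in IMR-32 for 2. The caveolar coat protein CAVIN1 differed by 7.33 ± 0.17 and the tropomyosins TPM2 by 2.77 ± 0.08 and TPM1 by 1.67 ± 0.09. Among the 6 TPM1 probes, those at -0.95 and -0.60 went the other way.

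Markers of other cell types were examined because matrix genes also mark fibroblasts. Of 10 fibroblast markers, 9 were called higher in SK-N-AS, all at least 2-fold, and THY1 was higher in IMR-32 by 0.77. Their summed intensity was 113000 to 147000 units in SK-N-AS and 8430 to 9100 in IMR-32, and the part that other cells or the cells' own state have in this was not tested. Of 9 measured blood cell markers 2 were called higher in SK-N-AS, PTPRC (CD45) by 10.58 ± 0.18 and CD68 by 4.09 ± 0.10. The blood marker sum was 5280 to 7950 units against 154 to 266. The other 7 markers of blood cells were dim in both and not called, with CD3D at 0.68 and 0.56, LYZ at 1.36 and 1.06 and CD14 at 6.32 and 6.23. A second PTPRC probe read 3.61 against 0.97.

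Endothelial markers were dim, with CDH5 at 3.11 and 2.79 and TIE1 at 0.88 in both lines. Called higher in SK-N-AS were 3 of 8, TEK (5.24 against 1.00), ESAM (6.26 against 5.27) and ENG (5.97 against 5.43). In IMR-32 it was 1, PECAM1, at 4.62 against 3.65 in SK-N-AS. Sums were 240 to 434 units in SK-N-AS and 132 to 177 in IMR-32. In the GFP arrays 7 of these 8 markers were called higher in SK-N-AS and 0 in IMR-32. Among epithelial markers, 5 of 8 were called higher in SK-N-AS and 0 in IMR-32. Their sums of 38400 to 62100 and 2580 to 3660 units are mostly KRT18 in SK-N-AS, a keratin that differed by 5.62 ± 0.12. CDH1, the epithelial cadherin, was near the lowest intensity in both, at 1.04 and 1.06. Of 7 Schwann cell and melanocyte markers, 3 were called higher in IMR-32, against 0 in SK-N-AS, with sums of 346 to 400 units in SK-N-AS and 3920 to 6900 in IMR-32. The IMR-32 sum is mostly PMEL, at log2 12.11, with MBP at 7.63 and S100B at 4.69. In the GFP arrays 3 markers were called each way, with a list median of 1.01 against -0.72 here. PMEL differed by 4.28 ± 0.12, MBP by 6.63 ± 0.18 and S100B by 4.20 ± 0.10, while SOX10 was dim at 3.02 and 3.74. The 2 other MBP probes gave 0.09 and 0.02 toward SK-N-AS, so the MBP difference rests on 1 of 3 probes.

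HOX genes were in part not called: 8 of 11 in the HOXA cluster, 5 of 10 in HOXB, 5 of 9 in HOXC and 2 of 8 in HOXD. Over all genes 34.5% were called toward SK-N-AS and 30.2% toward IMR-32. In the HOXB cluster HOXB2 ran from 11.27 over 11.52 to 12.32 in SK-N-AS and from 1.29 over 2.27 to 2.92 in IMR-32, and HOXB3 differed by 8.35 ± 0.26. Of its 10 genes 5 were called higher in SK-N-AS and 0 in IMR-32, 2 of them at least 2-fold. In the HOXC cluster HOXC6 was higher in SK-N-AS by 3.43 ± 0.16 and HOXC8 by 1.32 ± 0.48, the latter with overlapping arrays (adjusted p = 0.043, limma) and 2.52 at 0, 48 and 96 h, and 4 of 9 were called, all toward SK-N-AS. HOXC8, next to HOXC9 in the cluster, differed by 7.88 in the GFP arrays.

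In the HOXD cluster HOXD11 (5.87 ± 0.11) and HOXD10 (3.12 ± 0.10) were higher in SK-N-AS, and HOXD3 (2.02 ± 0.19) and HOXD1 (0.99 ± 0.13) in IMR-32. HOXD4 was also called toward SK-N-AS, at 1.39, and HOXD13 toward IMR-32, by 1.65, which makes 3 and 3 of 8 called. In the HOXA cluster 3 of 11 were called higher in SK-N-AS and 0 in IMR-32, with HOXA10 at 2.74 ± 0.08, HOXA13 at 4.32 ± 0.22 and HOXA3 at 1.36 ± 0.39. The HOXA3 call (adjusted p = 0.0176, limma) was lost at 0, 48 and 96 h (adjusted p = 0.276). Of 8 genes for the DNA-binding partners of HOX proteins, 5 were called higher in IMR-32, against 2 in SK-N-AS. With MEIS1, PKNOX2 was higher in IMR-32 by 7.28 ± 0.15, PBX2 by 1.15 ± 0.09 (1 of its 2 probes, the other giving 0.02 toward SK-N-AS) and PKNOX1 by 1.02 ± 0.11.

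The mitochondrial pathway of apoptosis, in which BH3-only proteins act through BAX to activate CASP9 and downstream caspases, was the submitters' interest. Of 18 measured pro-apoptotic genes, 6 were called higher in SK-N-AS and 6 in IMR-32. Over all genes 34.5% were called higher in SK-N-AS and 30.2% in IMR-32, so these counts were near the shares of all genes. HRK, a neuronal BH3-only gene, ran from 12.43 over 12.71 to 12.90 in IMR-32 and from 5.40 over 6.25 to 6.71 in SK-N-AS, a difference of 6.51 ± 0.22 (adjusted p = 1.86e-07, limma). A second HRK probe read 8.51 and 8.59, so the HRK difference rests on 1 of 2 probes. CASP9 was higher in SK-N-AS by 1.67 ± 0.08, the executioner CASP6 by 3.88 ± 0.07 and the BH3-only BMF by 2.32 ± 0.10, and the BAX relative BOK was higher in IMR-32 by 2.73 ± 0.11, while a second BOK probe gave 0.13 toward SK-N-AS. BAX averaged 14.05 and 14.21 (adjusted p = 0.134), and its second probe was higher in SK-N-AS by 1.27. BBC3, or PUMA, was called toward SK-N-AS at 1.2 ± 0.40 (adjusted p = 0.0312), but its arrays overlapped and the call was lost at 0, 48 and 96 h (adjusted p = 0.513).

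Anti-apoptotic genes were called in both directions, 4 and 4 of 12, again near the shares of all genes (34.5% and 30.2%). BCL2 was higher in IMR-32 by 1.04 ± 0.12 and survivin, BIRC5, by 1.35 ± 0.12, whereas BIRC3, an NF-kB induced inhibitor, was higher in SK-N-AS by 6.33 ± 0.41 and BCL2L10 by 1.76 ± 0.19. Death receptor genes were called higher in SK-N-AS for 8 of 15 and in IMR-32 for 2. CFLAR, the decoy that holds caspase-8 in check, ran from 9.95 over 10.12 to 10.16 in SK-N-AS and from 0.49 over 0.56 to 1.22 in IMR-32. CASP10 differed by 5.78 ± 0.15, TNFRSF1A by 4.67 ± 0.10 and RIPK1 by 1.59 ± 0.08. CASP8, often silenced in MYCN-amplified neuroblastoma, was not called on its brightest probe (9.48 and 10.27, adjusted p = 0.0586, limma), while its other probes read 8.57 and 5.87 in SK-N-AS against 1.31 and 0.59 in IMR-32.

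Genes of p53 and of the cell cycle were called in both directions. Of 24 p53 target genes, 9 were called higher in SK-N-AS and 11 in IMR-32. TIGAR, which limits glycolysis, was higher in SK-N-AS by 8.61 ± 0.35 and TP53I3 by 3.06 ± 0.14, whereas PHLDA3 was higher in IMR-32 by 3.06 ± 0.09 and SESN1 by 2.03 ± 0.09. CDKN1A, or p21, was higher in SK-N-AS by 0.49 ± 0.13, a call that was lost at 0, 48 and 96 h (adjusted p = 0.0897, limma). The CDK inhibitors CDKN2A (2.85 ± 0.12) and CDKN2B (5.22 ± 0.12) were higher in SK-N-AS, and CDKN1C was higher in IMR-32 by 3.63 ± 0.09.

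Replication genes were called higher in IMR-32 for 15 of 23 and in SK-N-AS for 2, 3 and 0 of them at least 2-fold. In the GFP arrays 8 were called toward IMR-32 and 7 toward SK-N-AS, with a median of -0.05 against -0.44 here. CDC25A, which starts S phase, differed by 1.58 ± 0.08 and E2F2 by 1.03 ± 0.12. Mitotic genes were called for 10 of 23 toward IMR-32 and 5 toward SK-N-AS. That lean turned at 6, 12 and 24 h alone, with 7 and 8, and in the GFP arrays, with 5 and 12. Aurora kinase B, AURKB, differed by 2.28 ± 0.10, and the proliferation antigen MKI67 by 0.74 ± 0.20 (by 1.22 at 0, 48 and 96 h). CCNE1, cyclin E1, was higher in SK-N-AS by 1.90 ± 0.08, and CDK6 (1.05) and CCND1 (0.90) were higher in IMR-32, where 3 of the 8 cyclin and kinase genes were called, against 2 in SK-N-AS.

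Interferon and antigen presentation genes were brighter in SK-N-AS. Of 21 interferon-stimulated genes, 18 were called higher in SK-N-AS, 17 of them at least 2-fold, and 1 in IMR-32. The antiviral membrane protein IFITM3 ran from 14.96 over 15.34 to 15.72 in SK-N-AS and from 7.82 over 8.10 to 8.33 in IMR-32. IFITM2, whose sequence is close to it, differed by 6.99 ± 0.10, the factor IRF7 by 7.13 ± 0.14 and IFIT2 by 4.84 ± 0.13.

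Antigen presentation by MHC class I was called higher in SK-N-AS for 12 of 16 genes and in IMR-32 for 1. In the GFP arrays these counts were 7 and 1, with a median difference of 0.16 against 1.06 here. The peptide transporter TAP1 differed by 6.25 ± 0.16, the immunoproteasome subunits PSMB8 by 6.09 ± 0.16 and PSMB9 by 2.63 ± 0.10, the peptidase ERAP2 by 5.85 ± 0.12, and B2M, the light chain, by 1.18 ± 0.13. NF-kB genes were called for 13 of 20 toward SK-N-AS and 2 toward IMR-32. The cytokines IL1B and IL1A differed by 6.90 ± 0.31 and 5.04 ± 0.15, ICAM1 by 5.03 ± 0.20 and NFKB2 by 2.93 ± 0.08.

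Growth factor receptors were called in both directions. ALK, a receptor kinase mutated in some neuroblastomas, ran from 12.21 over 12.27 to 12.30 in IMR-32 and from 2.96 over 3.38 to 4.87 in SK-N-AS. RET, the GDNF family receptor, went the other way, from 12.84 over 13.65 to 13.91 in SK-N-AS against 7.75 over 8.16 to 8.23 in IMR-32. Yet its co-receptors GFRA1 (6.01 ± 0.23) and GFRA2 (2.90 ± 0.15) were higher in IMR-32. Over the list, 4 and 5 of 11 genes were called toward SK-N-AS and IMR-32.

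KIT differed by 9.45 ± 0.30 and ERBB4 by 4.79 ± 0.20 in IMR-32's favour. FLT1, a VEGF receptor, differed by 8.43 ± 0.13 and PDGFRB by 2.36 ± 0.08 in favour of SK-N-AS. A second PDGFRB probe read 7.06 in SK-N-AS and 7.03 in IMR-32, so the PDGFRB difference rests on 1 of 2 probes. Of 17 receptor genes, 10 were called higher in SK-N-AS, against 3 in IMR-32. Among neurotrophin genes, of which 3 of 6 were called higher in SK-N-AS and 2 in IMR-32, the ligand NTF4 was higher in SK-N-AS by 8.35 ± 0.12, the low-affinity receptor NGFR by 1.60 ± 0.18, and NTRK3 was higher in IMR-32 by 4.44 ± 0.09. Genes that RAS-MAPK signalling induces as feedback were called higher in SK-N-AS for 13 of 14, 12 at least 2-fold, against 0 in IMR-32. SK-N-AS is known to carry an activated NRAS, and whether it has a part in these differences was not tested. The phosphatase DUSP6 differed by 6.03 ± 0.07, the ETS factor ETV4 by 6.64 ± 0.14, and the Sprouty genes SPRY4 by 7.25 ± 0.12 and SPRY1 by 6.21 ± 0.13.

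Developmental signalling genes had members on both sides. In the Notch list 6 of 18 were called higher in SK-N-AS and 8 in IMR-32, while in the GFP arrays these were 9 and 6. The Notch median was -0.25 here and 0.74 there. The target HES1 was higher in SK-N-AS by 6.30 ± 0.12, whereas the ligands DLL1 (5.22 ± 0.12) and JAG2 (5.25 ± 0.07) and the atypical ligand DLK1 (8.04 ± 0.14) were higher in IMR-32. In the Wnt list the counts were 11 and 6 of 20. WNT5A, a non-canonical ligand, was higher in SK-N-AS by 6.28 ± 0.13, and AXIN2, a target of canonical signalling, in IMR-32 by 4.40 ± 0.14. In the TGF-beta list they were 13 and 5 of 21, with a median of 0.96, and in the GFP arrays 9 and 4, with a median of 0.04. The ligand TGFB1 (6.78 ± 0.17), its receptor TGFBR2 (4.16 ± 0.08) and the activin antagonist FST (9.48 ± 0.12) were higher in SK-N-AS, and BMP7 (5.27 ± 0.17) in IMR-32.

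Retinoic acid genes were called higher in SK-N-AS for 10 of 15 and in IMR-32 for 4. The binding protein CRABP2 differed by 6.28 ± 0.16, CRABP1 by 2.87 ± 0.13 and the retinol importer STRA6 by 3.87 ± 0.11. Axon guidance genes were called 11 and 10 times of 27, with EPHA3 toward SK-N-AS and its relative EPHA5 toward IMR-32 by 6.2 ± 0.16. The repellent SLIT1 was higher in IMR-32 by 3.54 ± 0.08 and the semaphorin receptor PLXNA2 in SK-N-AS by 3.51 ± 0.09. Of 15 neural crest and glial genes, 6 were called higher in SK-N-AS and 4 in IMR-32, with nestin, NES, at 1.75 ± 0.10 and TFAP2A at 2.83 ± 0.19 the other way.

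Among metabolic genes, 2 enzymes of serine synthesis were higher in IMR-32. PSAT1 ran from 13.01 over 13.21 to 13.41 in IMR-32 and from 5.83 over 6.67 to 7.07 in SK-N-AS, and PHGDH, the first enzyme of the pathway, differed by 5.23 ± 0.10. ASNS, asparagine synthetase, differed by 2.20 ± 0.12 and the lipoprotein receptor VLDLR by 8.54 ± 0.20, though over the unfolded protein and amino acid stress list the counts were even, 7 and 7 of 18. Sterol and fatty acid genes were called higher in IMR-32 for 8 of 13 and in SK-N-AS for 2, with HMGCS1 at 1.45 ± 0.13, SREBF2 at 1.44 ± 0.08 and SCD at 1.55 ± 0.10. A second SCD probe went the other way, at 0.88.

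Hypoxia and glycolysis genes were called 7 and 6 times of 18. The glucose transporter SLC2A3 was higher in SK-N-AS by 5.50 ± 0.27 and ENO2, the neuronal enolase, in IMR-32 by 4.42 ± 0.13. For nuclear subunits of oxidative phosphorylation the counts were 8 and 8 of 23. SDHB, of complex II, was higher in SK-N-AS by 1.73 ± 0.15 and UQCRC1, of complex III, in IMR-32 by 1.25 ± 0.11. Detoxification genes were called 8 and 6 times of 16, with the quinone reductase NQO1 (5.06 ± 0.09) and the efflux pump ABCC2 (4.73 ± 0.10) toward SK-N-AS and the glutathione transferases GSTM3 (10.28 ± 0.22) and GSTM1 (2.83 ± 0.07) toward IMR-32.

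Chromatin and germline genes completed the lists. DNA methylation and Polycomb enzymes were called higher in IMR-32 for 10 of 15 and in SK-N-AS for 1, with JARID2 at 1.86 ± 0.17 and SUZ12 at 1.67 ± 0.14. In the GFP arrays the counts of that list were 6 and 3, with a median difference of -0.08 against -0.56 here. Cancer-testis genes, normally silent outside the germline, were called higher in SK-N-AS for 15 of 18, 13 at least 2-fold, and in IMR-32 for 0. MAGEA12 ran from 12.40 over 12.52 to 12.73 in SK-N-AS and from 1.34 over 2.10 to 2.48 in IMR-32, and MAGEA4 differed by 8.54 ± 0.20. PRAME was bright in both, at 15.19 and 12.91. MAGEA and GAGE genes have near-identical copies that may share signal.

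Whether a line difference belongs to the arrays labelled HOXC9 was asked against the GFP arrays, which share no array with the comparison. In the GFP arrays 3290 genes (19.1%) were called at least 2-fold higher in SK-N-AS and 2586 (15%) in IMR-32. Of the 3175 genes at least 2-fold higher in SK-N-AS in the arrays labelled HOXC9, 2595 (81.7%) were called in the same direction in the GFP arrays and 111 in the opposite one. Of the 2774 higher in IMR-32 these were 2355 (84.9%) and 116. Across the 17199 genes, which are not independent replicates, the differences of the arms correlated at r = 0.835 and their ranks at 0.691.

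The difference between the arms was then tested gene by gene. For 3609 genes (21%) the line difference was higher in the arrays labelled HOXC9 than in the GFP arrays, and for 3749 (21.8%) it was lower. At 0, 48 and 96 h alone these counts were 1701 (9.89%) and 1815 (10.6%). The order of the lines was turned for 666 called genes, 123 of them at least 2-fold in both arms, and 79 of these 123 were higher in IMR-32 in the arrays labelled HOXC9. Since HOXC9 itself went against the label in SK-N-AS, a difference between the arms cannot be read as an effect of HOXC9 there.

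Among genes above log2 11.31 in at least 1 group, CLEC2B, a lectin, had the highest change toward SK-N-AS: its line difference was 10.31 here, against 1.08 in the GFP arrays, a change of 9.23 ± 0.41 (adjusted p = 7.08e-09, limma). It averaged 11.54 in SK-N-AS labelled HOXC9 and 2.28 in SK-N-AS labelled GFP, and near the lowest intensity in both arms of IMR-32. CD36, a fatty acid and thrombospondin receptor, changed by 7.79 ± 0.58, the troponin TNNT1 by 6.4 ± 0.35 and MMP1 by 4.96 ± 0.57, with SK-N-AS brighter in the arrays labelled HOXC9 for each. FST, whose levels lay below that limit, changed by 10.51 ± 0.46. The order of the lines turned for GAGE12F, which stood 6.36 higher in IMR-32 in the GFP arrays and 1.57 higher in SK-N-AS here. ENPP2, the autotaxin enzyme, turned likewise, from 4.58 to 1.25, and PDIA2 and TMEM130 kept the order with changes of 5.81 and 5.35.

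The opposite changes were as large. VEGFD, a lymphangiogenic factor, stood 5.02 higher in SK-N-AS in the GFP arrays and 5.56 higher in IMR-32 here, a change of 10.58 ± 0.34 toward IMR-32 (adjusted p = 5.17e-10, limma). DLK1 went from 2.20 toward SK-N-AS to 8.04 toward IMR-32, the neurogenic factor NEUROD1 from 2.70 to 5.27, EGFLAM from 3.75 to 3.35, TIMP3 from 2.46 to 4.58 and ERBB4 from 4.42 to 4.79. For DLK1 both lines moved apart: SK-N-AS averaged 13.67 in GFP and 6.52 in HOXC9 arrays, and IMR-32 11.47 and 14.56. The chemokine receptor ACKR3, the interferon-induced IFI44 and TSPYL5 stayed higher in SK-N-AS but by less, with changes of 7.57, 7.36 and 7.10 toward IMR-32.

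HRK belongs with them, since its difference toward IMR-32 was 0.78 in the GFP arrays and 6.51 here, a change of 5.73 ± 0.25 (adjusted p = 6.86e-09, limma). Its IMR-32 arrays averaged 12.67 labelled HOXC9 and 11.80 labelled GFP, and its SK-N-AS arrays 6.17 and 11.02. A second HRK probe differed toward IMR-32 by 0.08 here and by 0.26 in the GFP arrays, so this change rests on 1 of 2 probes. Other list genes with a larger difference here, each called unlike between the arms, were DCX (6.09 against 1.46 in the GFP arrays), GFRA1 (6.01 against 2.04) and PCSK2 (3.85 against 0.43) toward IMR-32, and PSMB8 (6.09 against 1.97) and ABCC2 (4.73 against 0.60) toward SK-N-AS. MYC, LIN28B and HMGA2 differed strongly in both arms, by 7.91 here and 9.4 in the GFP arrays for MYC, 9.43 and 8.64 for LIN28B, and 11.83 and 12.51 for HMGA2.

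**Figure D4:**
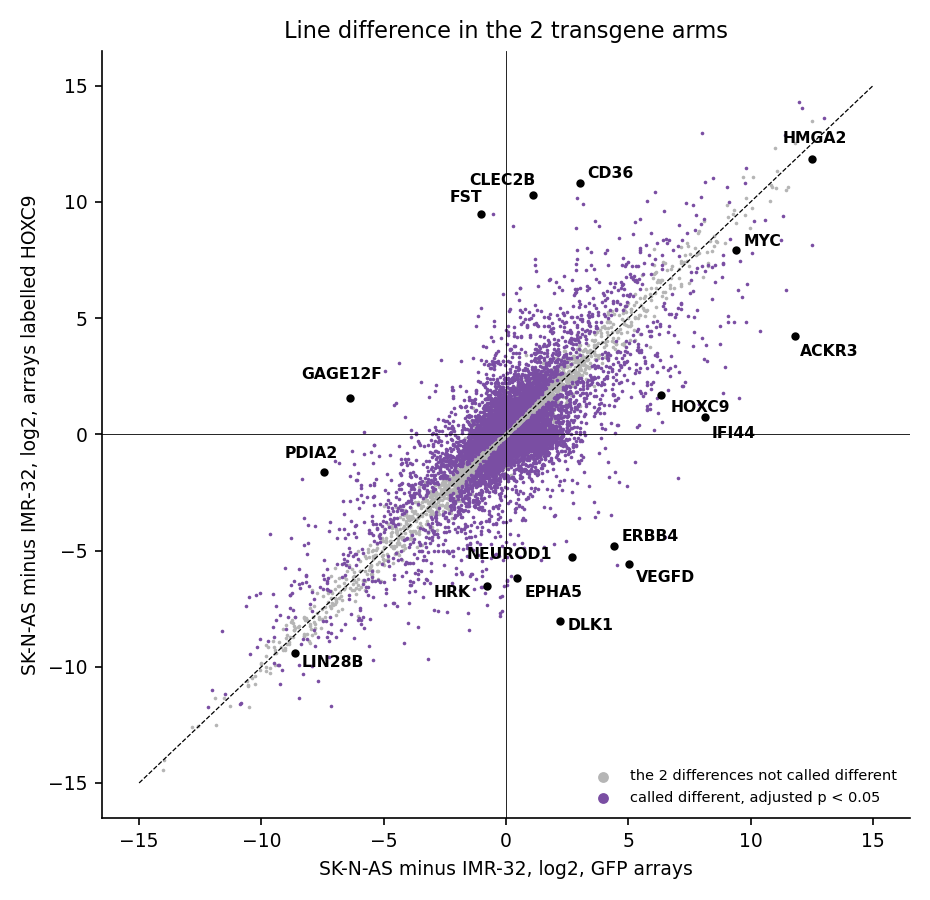
Log2 difference, SK-N-AS minus IMR-32, of 17199 genes in the GFP arrays (x axis) and in those labelled HOXC9 (y axis), with genes whose differences were called unlike in purple and the line of equality dashed. Over all points r is 0.835 and the rank correlation 0.691, and 7358 genes were called unlike. CLEC2B, CD36 and FST lie above the dashed line and DLK1, VEGFD and NEUROD1 below.

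Over the hours, no gene's line difference was called as rising or falling. The trend against log2(1 + h/6) gave 0 called genes by limma, with 829 at an unadjusted p under 0.05 and a smallest adjusted p of 0.503, and 0 under each of its alternatives. Among genes above log2 11.31 in a line, the smallest unadjusted p toward SK-N-AS belonged to SASH1 (0.48 ± 0.12 per unit of the time scale, adjusted p = 0.911, limma) and toward IMR-32 to LYN (-0.22 ± 0.05, adjusted p = 0.892). SASH1 averaged 7.38 in SK-N-AS and 11.34 in IMR-32, so the lines stayed apart by 3.96 ± 0.29 on average.

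Bright genes were also ordered along the chromosomes, as neighbour order in GRCh38.p14, since copy number differs between neuroblastoma lines. The 7139 genes above log2 9 on average in all 4 groups had a median difference of 0.05. By chromosome it ran from -0.64 on chromosome 6 (361 genes) and -0.59 on chromosome 13 (119 genes) to 0.33 on chromosome 7 (330 genes). In the GFP arrays chromosome 13 stood at -0.51 and chromosome 7 at 0.34, whereas chromosome 6 stood at -0.17. Windows of 25 consecutive bright genes were then read along the chromosomes, and a selection of the extreme windows is given as values with no test, because they were chosen for being extreme.

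Toward the start of chromosome 1, the window from TMEM51 to PINK1 had a median of 1.47, with 23 of 25 genes higher in SK-N-AS, and 1.11 in the GFP arrays. On chromosome 3 the window from CLASP2 to KIF15 stood at -1.11, with 25 of 25 genes higher in IMR-32, and at -1.05 in the GFP arrays. On chromosome 11 the window from HIKESHI to LAYN stood at -1.13 (GFP arrays -0.64), on chromosome 17 the window from IGF2BP1 to AKAP1 at -1.13 (-0.97), and on chromosome 22 that from SREBF2 to BRD1 at -0.82 (-0.94). On chromosome 13 the window from KATNAL1 to ESD stood at -1.16, with 25 of 25 genes higher in IMR-32, and at -0.86 in the GFP arrays. On chromosome 8 the window from LYNX1 to SLC52A2 stood at 1.16, with 24 of 25 genes higher in SK-N-AS, and at 0.40 in the GFP arrays. Chromosome 16 held both signs, -0.82 from PHAF1 to ZFP90 and 1.02 from PDPR to ATMIN, at -0.87 and 0.91 in the GFP arrays.

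The values of a window near the start of chromosome 6 lay further apart between the arms than those of the windows above. From NOL7 to H3C4 the median was -1.31 in the arrays labelled HOXC9, with 23 of 25 genes higher in IMR-32, and -0.16 in the GFP arrays, with 16 of 25. Within SK-N-AS these genes were lower in the arrays labelled HOXC9 than in those labelled GFP by a median of 1.04, and within IMR-32 the median HOXC9 minus GFP difference was -0.03. JARID2, a Polycomb cofactor in this stretch, differed by 1.86 ± 0.17 toward IMR-32 in the arrays labelled HOXC9 and by 0.07 in the GFP arrays. At 0, 48 and 96 h the JARID2 difference was 1.47.

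**Figure D5:**
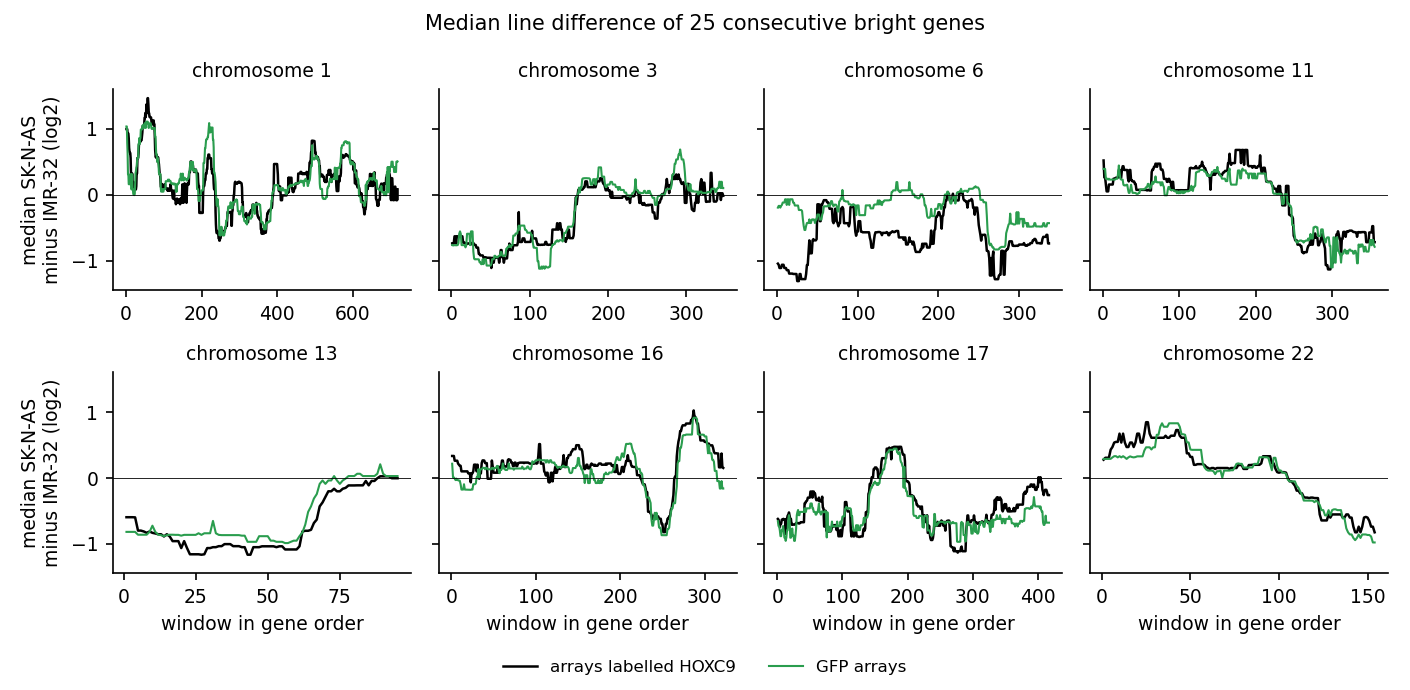
Median log2 difference, SK-N-AS minus IMR-32 (y axis), of windows of 25 consecutive bright genes in gene order (x axis) along 8 chromosomes, with HOXC9-labelled arrays in black and GFP arrays in green. The curves run together at -1.11 and -1.05 on chromosome 3 and part at the start of chromosome 6, at -1.31 against -0.16.

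Where a gene had several probes, they mostly had the same sign. Of 2662 genes that were called with at least 2-fold and have a second probe, 2432 had the same sign on it and 230 the opposite sign. Restricted to second probes above log2 7 in either line these were 1445 and 88 of 1533. Over the 7572 genes with more than 1 probe the difference correlated between the brightest and the second probe at r = 0.775. Among genes used as loading controls, GAPDH differed by 0.14 ± 0.08 toward IMR-32 and was not called (adjusted p = 0.181, limma), ACTB by 0.43 ± 0.08 toward SK-N-AS, and TBP by 0.76 ± 0.07 toward IMR-32.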

How the data were processed

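Total RNA of each culture was labelled with Cy3 and hybridised to one-colour 44K oligonucleotide arrays, and the submitters' processing notes name limma. The deposited values are linear fluorescence intensities of 44708 features, which the authors had brought to 1 common distribution: at any rank, no array departs from another by over 0.0723%. Background correction and filters are not given in the sources used here. The files hold no counts and no detection flags, so depth is unknown and no floor was set. Values were put on the log2 scale from the deposited intensity, without an offset. GEO's platform table gave 27942 features 1 gene symbol, updated through RefSeq where possible, and 16766 none or several. The brightest probe stood for each of 17199 genes.

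The line difference was tested with limma 3.58.1 (R 4.3.3; lmFit and eBayes, 2-sided, Benjamini-Hochberg over all genes) on 12 arrays with the hour as a block. Its difference from the GFP arrays was tested over 24 arrays with a block for each transgene and hour, and its trend over log2(1 + h/6). The script was tested on simulated data. Named genes were the 15 largest differences each way among called genes that kept 1 sign over all 6 hours and a mean above log2 11.31, the 75th percentile of gene means, in the higher line; the 8 largest each way between the arms and the 5 each way in the trend; up to 4 called members with the smallest p from each list; and a set of reference genes. The text names a part of them. Genes beside MYCN and MEIS1, markers, some further list members (such as JUN, LOX and HOXD13) and the ends of windows outside this rule were named after their values were seen. The members and the 59 gene lists were chosen with earlier results of these data known. Alternatives changed the block, hours, scaling, offset, probes, filter and weights. Figures used matplotlib 3.10.9.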

Additional observations from a re-analysis of the deposited data

Results flagged for a closer look

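For 34 of 500 sets of 6 arrays, 1 set a line for each of the 250 genes described with a line difference, the highest or lowest array lay far from the other 5, by more than Dixon's critical share of the set's whole range. Chance gives this in about 1 of 20 sets, and no cause was tested. The array was of SK-N-AS for 16 and of IMR-32 for 18, and of 0 h for 10, 6 h for 7, 12 h for 7, 24 h for 1, 48 h for 2 and 96 h for 7. In SK-N-AS the array that stood above the others was that of ABCC2 at 10.18 (6 h), ALK at 4.87 (0 h), CDKN1A at 11 (6 h), FAP at 12.37 (96 h), PLXNA2 at 11.44 (0 h), SVOP at 2.67 (0 h), TFAP2A at 2.03 (96 h), VEGFD at 9.52 (0 h) and PHF21B at 4.14 (0 h). In SK-N-AS the array that stood below the others was that of BMF at 9.85 (6 h), CFLAR at 9.95 (12 h), CRABP1 at 14.95 (96 h), INA at 6.01 (0 h), RIMS2 at 2.67 (96 h), RPL8 at 16.93 (96 h) and VLDLR at 1.19 (48 h). In IMR-32 the array that stood above the others was that of ANXA1 at 1.99 (12 h), CFI at 4.78 (24 h), FAP at 1.97 (12 h), FLT1 at 0.83 (12 h), HOXB3 at 0.99 (6 h), POSTN at 1.85 (48 h), CTAG2 at 0.79 (6 h) and ARMCX2 at 12.90 (12 h). In IMR-32 the array that stood below the others was that of BSN at 11.02 (0 h), DLL1 at 11.63 (0 h), E2F2 at 12.69 (6 h), GATA3 at 11.40 (0 h), HMGA2 at 0.53 (6 h), MYCN at 14.15 (12 h), TFAP2A at 3.39 (12 h), TIGAR at 0.49 (96 h), TNFRSF1A at 6.04 (96 h) and ZBED10P at 11.91 (0 h). The other 5 IMR-32 arrays lay at or below 0.52 for CFI and 0.59 for POSTN, near the lowest intensity.

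For 170 of the 250 genes, limma called the line difference of the arrays labelled HOXC9 unlike that of the GFP arrays. Values are the first minus the second, so that a positive value means a shift toward SK-N-AS in the arrays labelled HOXC9. SK-N-AS did not show a brighter HOXC9 probe in the arrays that carry this label, and no cause was tested. Each value is that of the brightest probe alone, and other probes of a gene can differ. On the second probe, RTN1 and SASH1 shifted toward IMR-32 and HOXA10 toward SK-N-AS, against the direction listed for them. The second probes of ABCC2, CD36 and DLK1 shifted in the direction listed. For GRIA2 the other probes shifted by less. The shifts of these other probes were not tested. In the lists of neuronal, sympathetic, neural crest, Schwann cell and melanocyte genes, the shift was toward SK-N-AS for RTN1 (3.24), CYB561 (2.80), TFAP2B (2.09), CNTN1 (1.17), LMO3 (0.78), SCG2 (0.69) and GATA3 (0.60). In the lists of neuronal, sympathetic, neural crest, Schwann cell and melanocyte genes, the shift was toward IMR-32 for EPHA5 (-6.66), DCX (-4.64), GRIA2 (-4.25), PCSK2 (-3.42), PMEL (-3.27), DBH (-3.09), RBFOX1 (-2.93), CNTNAP2 (-2.85), CHGB (-2.65), TFAP2A (-2.62), NRCAM (-2.61) and SCG3 (-2.53). It was also toward IMR-32 for SRRM4 (-1.96), SLC6A3 (-1.76), CELF3 (-1.40), CNTN2 (-1.29), S100B (-1.22), SLIT1 (-1.10), CHRM3 (-1.06), RIMS2 (-1.03), CHGA (-1.01), INA (-1.0), GRIK2 (-0.88) and PLXNA2 (-0.66). It was also toward IMR-32 for RAB3C (-0.66) and HAND2 (-0.51). In matrix, adhesion, cytoskeleton and mesenchymal identity, the shift was toward SK-N-AS for MMP1 (4.96), MMP10 (4.70), CD44 (4.26), PRRX1 (3.72), FAP (2.75), ITGA11 (2.28), ANXA1 (1.95), COL5A1 (1.93), DCN (1.68), FOSL1 (1.53), TPM2 (1.53) and TBX18 (1.52). It was also toward SK-N-AS for ITGA8 (1.51), TGFBI (1.46), TIMP1 (1.41), CAVIN1 (1.35), POSTN (1.28), FOS (1.27), ITGB5 (1.05), KRT18 (0.94), PTPN14 (0.91), FN1 (0.82) and LOXL2 (0.76). In matrix, adhesion, cytoskeleton and mesenchymal identity, the shift was toward IMR-32 for TIMP3 (-7.05), YAP1 (-1.58), VIM (-1.32), COL1A1 (-0.75) and TEAD2 (-0.48). In MYC, LIN28, ribosomes and HOX clusters, the shift was toward SK-N-AS for HOXD11 (2.31), HOXD10 (1.74), HOXA3 (1.32), MYCN (1.31), PKNOX2 (0.74) and RPL8 (0.72). In MYC, LIN28, ribosomes and HOX clusters, the shift was toward IMR-32 for HOXC8 (-6.57), HOXC9 (-4.66), HOXB3 (-2.90), MEIS1 (-1.82), IGF2BP2 (-1.80), HOXA10 (-1.57), MYC (-1.49), IGF2 (-1.07), PBX2 (-0.85), LIN28B (-0.79), HOXD1 (-0.68) and HMGA2 (-0.68). It was also toward IMR-32 for NME1 (-0.45).

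In cell death, p53 and the cell cycle, the shift was toward SK-N-AS for BIRC3 (4.17), TIGAR (3.41), BBC3 (1.71), BMF (1.69), CASP6 (1.03) and RIPK1 (0.41). In cell death, p53 and the cell cycle, the shift was toward IMR-32 for HRK (-5.73), PHLDA3 (-1.2), E2F2 (-0.98), CDC25A (-0.97), CDK6 (-0.94), CDKN2A (-0.78), AURKB (-0.65), CCNE1 (-0.52), BOK (-0.48) and SESN1 (-0.42). In immunity and blood cell markers, the shift was toward SK-N-AS for PSMB8 (4.12), IL1A (3.47), PSMB9 (2.59), IFIT2 (2.39), ICAM1 (2.14), IL1B (1.85), ERAP2 (1.70), NFKB2 (1.56), TAP1 (1.43), CD68 (1.33), B2M (0.86) and IRF7 (0.76). In immunity and blood cell markers, the shift was toward IMR-32 for IFI44 (-7.36), IFITM2 (-0.77) and IFITM3 (-0.76).

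In receptors and signalling, the shift was toward SK-N-AS for FST (10.51), FLT1 (3.83), HES1 (2.89), SPRY4 (2.37), TGFB1 (1.89), NTF4 (1.69), TGFBR2 (1.5), PDGFRB (1.22), STRA6 (1.13) and JAG2 (1.0). In receptors and signalling, the shift was toward IMR-32 for DLK1 (-10.25), ERBB4 (-9.21), BMP7 (-5.31), SPRY1 (-5.23), GFRA1 (-3.97), CRABP1 (-3.84), NGFR (-3.48), DLL1 (-3.02), ALK (-1.76), AXIN2 (-1.36) and DUSP6 (-0.76). In metabolism, stress, chromatin and cancer-testis antigens, the shift was toward SK-N-AS for GAGE12F (7.93), ABCC2 (4.14), PSAT1 (1.82), NQO1 (1.69) and SLC2A3 (1.44). In metabolism, stress, chromatin and cancer-testis antigens, the shift was toward IMR-32 for PRAME (-3.51), PHGDH (-1.86), JARID2 (-1.79), VLDLR (-1.37), ASNS (-0.94), SUZ12 (-0.88), SCD (-0.80) and UQCRC1 (-0.46). Among the other genes described, it was toward SK-N-AS for CLEC2B (9.23), CD36 (7.79), TNNT1 (6.4), ENPP2 (5.83), PDIA2 (5.81), TMEM130 (5.35), SASH1 (3.86), LY6K (2.56), CTAG1A (2.29), FHOD3 (1.01), GNG11 (0.57) and GRIK3 (0.45). Among the other genes described, it was toward SK-N-AS for ZBED10P (0.32). Among the other genes described, it was toward IMR-32 for VEGFD (-10.58), NEUROD1 (-7.97), ACKR3 (-7.57), TSPYL5 (-7.10), EGFLAM (-7.09), FAM162B (-4.56), PHF21B (-2.90), LYN (-1.36), FABP5 (-0.73), NMNAT2 (-0.70), TBP (-0.63) and ACTB (-0.46).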

How the results depend on the processing

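Without hour as a block (no replicate block), 6038 and 5260 genes were called higher in SK-N-AS and IMR-32, and the arms differed upward and downward for 3831 and 3891, within 1.5 times the counts with it. Arrays of the same hour correlated at -0.03 to 0.14 in their deviations from the line means, above 0.1 for 1 of 6 pairs, so the hour is shared in name more than in deviation. Leaving out each hour in turn gave 5522 to 5895 and 4836 to 5101 calls, 2859 to 3707 and 2936 to 3656 between the arms, and 0 to 0 for both trends. Counts moved by more than 1.5 times for the second brightest probe (2766 and 2137, of 7572 genes with such a probe) and, between the arms, at 0, 48 and 96 h alone (1701 and 1815) and with dim genes left out (2318 and 2270, of 10319 genes tested). Of the 250 genes described, 227 kept direction and side of the threshold under every alternative run. The sign turned on the second brightest probe for ACTB (-0.20), BAX (1.27), BBC3 (-0.39), BOK (0.13), CASP8 (7.27), CD44 (0.08), FN1 (-1.36), HOXA3 (-0.01), MBP (0.09), PBX2 (0.02) and SCD (0.88), and on the mean over probes for BAX (0.56), CASP8 (3.92) and CD44 (0.03). It turned at 0, 48 and 96 h alone for CASP8 (0.01), HAND2 (0.15) and PHOX2A (-0.27), and at 6, 12 and 24 h alone for CHGA (-0.08). The cause was not tested. Of these, HAND2, PHOX2A, CHGA, BAX and CASP8 had no call over all hours, and CASP8 was called at 6, 12 and 24 h alone (-1.59). The SK-N-AS calls of BBC3, HOXA3 and CDKN1A and the IMR-32 calls of CD44, DBH and GATA3 were lost at 0, 48 and 96 h alone. Signal near background limits every difference against a line at the lowest intensity, and 6 arrays a line limit the rest. With 50 units added, 2299 and 2086 genes were at least 2-fold different, against 3175 and 2774.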
